A study of Mus musculus with 39 samples.

Results

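The genes described here mark granulosa cells and the fate of the ovary: Foxl2, Wnt4, Rspo1, Cyp19a1, Fst, Esr2, Hsd17b1 and Bmp2. They were chosen as a list by name, and each was read from the probe set annotated with that symbol alone. Of the 8 genes listed, 7 had such a probe set, out of 22180 genes on the array, and all 7 were above the limit for dim genes in every group mean. Cyp19a1, the aromatase that converts androgens to estrogens, had no probe set in the annotation and was not analysed here.

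Expression was measured on Affymetrix arrays in 39 mouse testes, as log2 intensities. Every mutant line combined floxed Prkar1a, which encodes a regulatory subunit that restrains protein kinase A (PKA), with a different Cre transgene. The line called prKO was Sf1:Cre,Prkar1afl/fl. In srKO the transgene was Amh:Cre with the same Prkar1afl/fl alleles, in lrKO it was Cyp11a1:Cre with those alleles, and the controls were wild-type littermates (WT). At 2 weeks there were 8 WT, 4 prKO, 4 srKO and 4 lrKO testes, and at 2 months 8 WT, 3 prKO, 4 srKO and 4 lrKO. As background, the Sf1 promoter is active in the somatic precursors of the gonad and in the adrenal cortex, the Amh promoter in Sertoli cells and the Cyp11a1 promoter in steroid-producing cells. Testis cells outside those lineages keep the floxed gene intact in each line, and their share was not measured. The labels name whole testis as the tissue, except that the extraction protocol speaks of adrenal glands. In whole-testis RNA, fewer cells of a type and less RNA per cell cannot be told apart.

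In the embryonic gonad, supporting cells become Sertoli cells in a testis or granulosa cells in an ovary. RSPO1 and WNT4 act through beta-catenin on the ovarian side, SOX9 acts on the testicular side, and FOXL2 keeps granulosa cells from taking on Sertoli features in the adult ovary. Granulosa cells are also known for follistatin, for estrogen synthesis and for estrogen receptor beta. The comparisons below show whether these genes were higher in the testes of each line. Whole-testis RNA cannot tell a change of expression within the somatic cells from a change in their share.

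Prkar1a itself was measured first. At 2 weeks its log2 intensity was 8.84 to 9.14 in the 8 WT testes (median 8.97). It was 8.04, 8.28, 8.33 and 8.17 in prKO, a log2 difference of -0.78 ± 0.07 (SE, limma, adjusted p = 4.5e-07). It was 8.48, 8.36, 8.52 and 8.64 in srKO (-0.48 ± 0.07, adjusted p = 0.0022), so that both groups lay below every WT array. In the arrays labelled lrKO it was 9.02, 8.98, 9.05 and 9.08, within the WT range. WT replicates 1 to 4 lay below replicates 5 to 8 in this gene at both ages, at 8.84 to 8.95 against 8.99 to 9.14 at 2 weeks and 8.61 to 8.81 against 8.95 to 9.00 at 2 months. At 2 weeks the calls for prKO and srKO held against either set of 4.

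At 2 months Prkar1a was 8.61 to 9.00 in WT (median 8.88). The prKO testes gave 8.66, 8.63 and 8.36, a log2 difference of -0.30 ± 0.09 (adjusted p = 0.0078). Of these 3 arrays, 2 lay within the range of WT replicates 1 to 4, and all 3 lay below every one of replicates 5 to 8. The difference was -0.18 (adjusted p = 0.12) against WT replicates 1 to 4 alone and -0.42 (adjusted p = 0.00062) against 5 to 8, and its call was also lost with a replicate block and without prKO replicate 3. The arrays labelled srKO gave 8.98, 9.10, 9.18 and 9.08, which is higher than WT by 0.24 ± 0.08 (adjusted p = 0.030). That difference was 0.36 (adjusted p = 0.0045) against WT replicates 1 to 4 alone and 0.12 (adjusted p = 0.32) against 5 to 8, and its call was lost in 8 of 25 alternatives, in none of which srKO was below WT. The arrays labelled lrKO gave 8.90, 8.88, 8.86 and 8.88 and did not differ detectably from WT. The probe set's position relative to the deleted part is not given in the sources used here, and if it lies outside that part these values do not check the labels. The targeted gene was not detectably lower in srKO at 2 months or in lrKO at either age, so it does not bear out those labels. Whether a fall in the targeted cells alone went unseen in whole-testis RNA was not tested. At 2 weeks the srKO difference of -0.48 was seen in such RNA. The names srKO and lrKO therefore stand below for the arrays labelled so, and the directions given for them rest on those labels.

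A few arrays stood apart. Adam7, an epididymis gene, was above a log2 intensity of 6 in prKO replicate 3 at 2 weeks (7.08) and, at 2 months, in WT replicate 4 (6.11), prKO replicate 1 (11.70) and lrKO replicate 4 (6.40). Without these 4 arrays the number of called members changed by at most 1 in any comparison, and values without them are given where a call changed. Among the members, WT replicates 1 to 4 at 2 weeks lay above replicates 5 to 8, opposite to Prkar1a, in Rspo1 (7.76 to 8.01 against 7.33 to 7.58) and Bmp2 (5.38 to 5.67 against 5.15 to 5.32).

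Measured against WT, the ovarian signals Rspo1 and Wnt4 moved most. Both rose in prKO at 2 months, Rspo1 also in prKO at 2 weeks, and Wnt4 also in srKO at 2 months. In prKO, 1 of the 7 genes rose at 2 weeks (Rspo1) and 4 rose at 2 months (Wnt4, Rspo1, Fst and Bmp2). In the arrays labelled srKO, none passed at 2 weeks and 2 rose at 2 months (Wnt4 and Fst). In the arrays labelled lrKO none passed at either age. Foxl2, Esr2 and Hsd17b1 passed against WT in no line at either age, although some alternatives called Foxl2 higher and Hsd17b1 lower in prKO.

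Those counts stand beside a broad response. Of the 19007 genes tested, 10.5% passed in either direction for prKO at 2 weeks, 7.9% higher and 2.59% lower, and 48.4% at 2 months, 26% higher and 22.4% lower. For srKO the shares were 0.873% at 2 weeks and 25.4% at 2 months, 14.7% higher and 10.8% lower. For lrKO they were 0.1% and 0.184%. At 2 months, 4 of 7 higher in prKO and 2 of 7 higher in srKO are both above the share of all genes that rose, and 7 genes are too few to call the list set apart. The srKO count includes Fst, whose call was lost in 13 of 25 alternatives. With Wnt4 alone the srKO count is not above that share. The median log2 difference of the members in prKO at 2 months was 0.40, beside 0.02 over all genes tested. In srKO it was -0.06, beside 0.03.

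**Figure D1:**
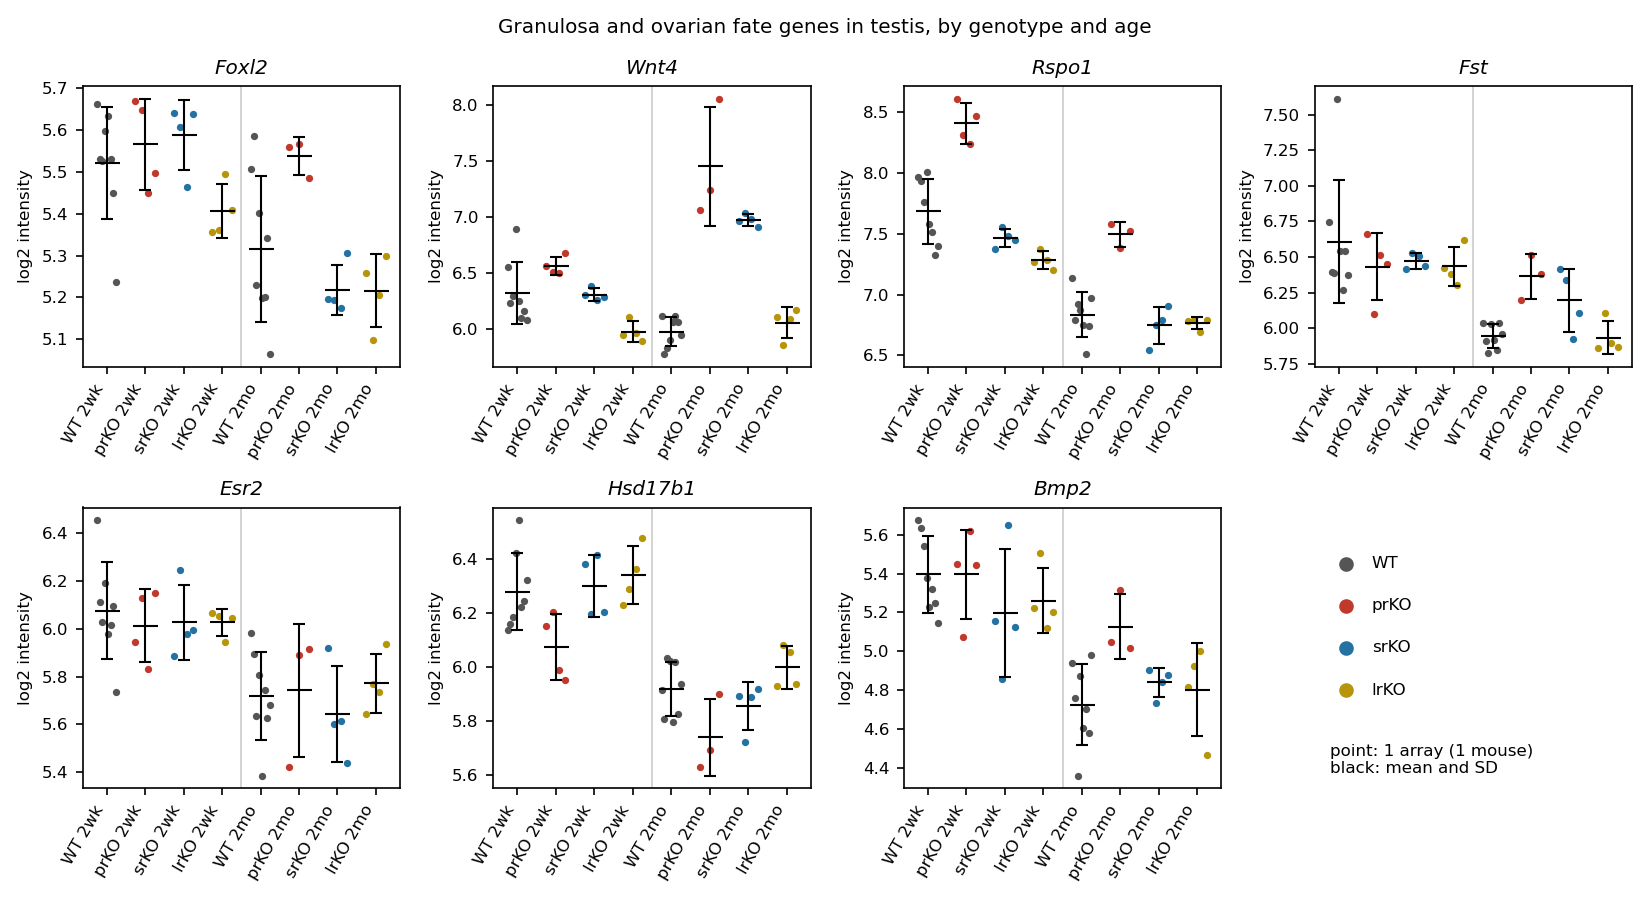
Log2 intensity of each of the 7 measured genes in every array, by genotype and age. Each point is 1 testis and the black lines the group mean with its SD; the vertical scale differs between panels. Wnt4 is high in both prKO and srKO at 2 months, whereas Rspo1 is high in prKO at both ages.

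Wnt4 encodes a secreted WNT ligand needed for ovary development. Its gene lies on chromosome 4, as does Rspo1. The 250 bases before the start of each gene are shown because both genes rose in prKO at 2 months. They come from RefSeq on GRCm38.p6, at chr4:137277385-137277634 for Wnt4 and chr4:124986180-124986429 for Rspo1, both on the plus strand, 5′ to 3′, in lower case with no part marked.
Wnt4: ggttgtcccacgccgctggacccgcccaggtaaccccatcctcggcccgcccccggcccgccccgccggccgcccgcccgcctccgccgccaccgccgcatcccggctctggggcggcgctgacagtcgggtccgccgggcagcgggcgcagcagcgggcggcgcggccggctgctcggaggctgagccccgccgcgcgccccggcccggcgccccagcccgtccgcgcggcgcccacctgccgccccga
Rspo1: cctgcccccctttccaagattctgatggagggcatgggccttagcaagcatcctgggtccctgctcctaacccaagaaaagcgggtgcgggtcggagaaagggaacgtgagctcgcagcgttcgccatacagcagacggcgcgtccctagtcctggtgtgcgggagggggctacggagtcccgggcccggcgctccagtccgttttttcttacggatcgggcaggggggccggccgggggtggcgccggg
The bases were G or C at 85.2% of positions for Wnt4 and at 66.8% for Rspo1, beside a median of 52.4% over all windows in the table. Windows of 300 bases (250 before the start and 50 after it) were searched on both strands for the cAMP response element TGACGTCA, held by 1.79% of 32851 windows. They were also searched for the SF-1 site AAGGTCA (4.72%), the forkhead core GTAAACA (3.65%) and the TCF/LEF core ATCAAAG (3.73%). None of these letter strings occurred in the 7 windows held for Foxl2, Wnt4, Rspo1, Cyp19a1 and Esr2.

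At 2 weeks Wnt4 lay between 6.08 and 6.89 in WT (median 6.24). It was 6.56, 6.51, 6.50 and 6.68 in prKO, 6.30, 6.39, 6.26 and 6.28 in srKO, and 5.95, 6.11, 5.97 and 5.89 in lrKO. The prKO and srKO arrays all lay within the WT range, and 3 of 4 lrKO arrays lay below it. Against WT the differences were 0.24 ± 0.11 in prKO (adjusted p = 0.18), -0.01 ± 0.11 in srKO (adjusted p = 0.97) and -0.34 ± 0.11 in lrKO (adjusted p = 0.35), and none passed. Against WT replicates 5 to 8 alone, prKO passed at 0.42, and against replicates 1 to 4 alone the difference was 0.07 and did not pass. Without WT replicate 4, the highest WT array, Wnt4 in prKO also passed, at 0.32 (adjusted p = 0.0069). Against WT replicates 1 to 4 alone, lrKO was lower by a called difference of -0.52.

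At 2 months the groups separated. Wnt4 was 5.78 to 6.12 in WT (median 6.01). It was 7.06, 7.25 and 8.06 in prKO, 6.97, 7.04, 6.99 and 6.91 in srKO, and 6.11, 5.85, 6.09 and 6.17 in lrKO. All prKO and all srKO arrays were above every WT array, with no overlap, while 3 of 4 lrKO arrays were inside the WT range. Wnt4 rose 2.79-fold in prKO (log2 difference 1.48 ± 0.14, adjusted p = 1.3e-07) and 2.00-fold in srKO (1.00 ± 0.13, adjusted p = 9.6e-06). In lrKO the difference was 0.08 ± 0.13 (adjusted p = 0.93). The prKO value depended on replicate 3, at 8.06, to the extent that it was 1.18 without it, and the call held in all 24 alternatives.

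Rspo1 encodes R-spondin 1, a secreted protein that strengthens WNT signalling by keeping WNT receptors at the cell surface. At 2 weeks it was 7.33 to 8.01 in WT (median 7.67) and 8.61, 8.31, 8.24 and 8.46 in prKO, all above every WT array. It was 7.38, 7.56, 7.48 and 7.45 in srKO, within the WT range, and 7.27, 7.38, 7.28 and 7.20 in lrKO, where 3 of 4 arrays lay below it. Rspo1 rose 1.65-fold in prKO (0.72 ± 0.11, adjusted p = 0.00028). It differed by -0.22 ± 0.11 in srKO (adjusted p = 0.38) and by -0.40 ± 0.11 in lrKO (adjusted p = 0.26). Against WT replicates 1 to 4 alone, srKO and lrKO were both called lower, at -0.45 and -0.63, and against replicates 5 to 8 neither was.

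At 2 months Rspo1 was 6.51 to 7.14 in WT (median 6.83). It was 7.58, 7.38 and 7.52 in prKO, again above every WT array. It was 6.54, 6.75, 6.79 and 6.91 in srKO and 6.78, 6.79, 6.69 and 6.79 in lrKO, all within the WT range. Rspo1 rose 1.58-fold in prKO (0.66 ± 0.10, adjusted p = 2.7e-05). The differences were -0.09 ± 0.09 in srKO (95% interval -0.28 to 0.11) and -0.07 ± 0.09 in lrKO (-0.26 to 0.12).

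By their calls against WT, both genes rose in prKO at 2 months, Rspo1 also in prKO at 2 weeks and Wnt4 also in srKO at 2 months. The difference between the patterns of the 2 genes was not tested. In the comparison of prKO with srKO at 2 months, Rspo1 was higher in prKO by 0.75 ± 0.12 (adjusted p = 0.00028, 3 of 3 arrays above every srKO array). Wnt4 was also higher in prKO, by 0.48 ± 0.16 (adjusted p = 0.034), but without prKO replicate 3 the difference was 0.18 and did not pass (adjusted p = 0.31). At 2 weeks Rspo1 was higher in prKO than in srKO by 0.94 ± 0.13 (adjusted p = 0.00011). Against lrKO, prKO was higher in Wnt4 and Rspo1 at both ages, by 0.59 and 1.12 at 2 weeks (adjusted p = 0.0050 and 1.2e-05) and by 1.40 and 0.73 at 2 months (adjusted p = 1.1e-06 and 3.8e-05). Wnt4 was higher in srKO than in lrKO at 2 months by 0.92 ± 0.15 (adjusted p = 0.00012).

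**Figure D2:**
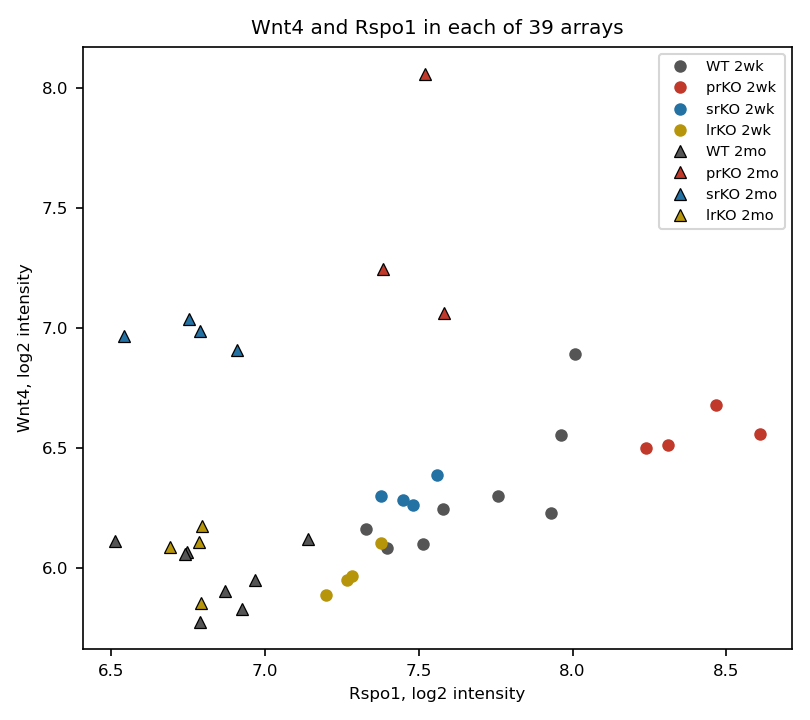
Log2 intensity of Wnt4 (vertical) against that of Rspo1 (horizontal), 1 point for each of the 39 arrays, with circles for 2 weeks and triangles for 2 months. At 2 months the prKO arrays are high in both genes, the srKO arrays are high in Wnt4 alone, and the lrKO arrays lie among WT.

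The members' counts between lines also stand beside broad differences. For prKO against srKO, 1 of 7 members passed at 2 weeks (11.8% of all genes) and 3 at 2 months (25.6%). For prKO against lrKO, 2 passed at 2 weeks (16.4%) and 5 at 2 months (45.6%). The 5 were Wnt4, Rspo1, Foxl2 and Fst, higher in prKO, and Hsd17b1, lower. Fst kept this call in all 18 alternatives. For srKO against lrKO, none passed at 2 weeks with limma (1.95% of all genes), where 2 members had an unadjusted p under 0.05, and 1 passed at 2 months (26.7%).

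The rise in Wnt4 grew between the ages, and that of Rspo1 did not detectably change. The change of the prKO difference from 2 weeks to 2 months was 1.24 ± 0.18 for Wnt4 (adjusted p = 3.5e-06) and -0.06 ± 0.16 for Rspo1 (95% interval -0.38 to 0.26). For Wnt4 in srKO it was 1.01 ± 0.17 (adjusted p = 5.6e-05). Fst also changed in prKO, by 0.60 ± 0.21 (adjusted p = 0.034), a call lost in 5 of 34 alternatives. So 2 of 7 members passed in prKO (28.2% of all genes), 1 in srKO (17.2%) and none in lrKO by limma (0.1%), where 2 had an unadjusted p under 0.05. Of all genes called for prKO, 56.3% were higher, and 44.4% after each array was centred on its median.

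In order of group means, Wnt4 ran from prKO and srKO at 2 months (7.46 and 6.98) through prKO, WT and srKO at 2 weeks (6.56, 6.32 and 6.31) to lrKO at 2 months, WT at 2 months and lrKO at 2 weeks (6.06, 5.98 and 5.98). The ranges of neighbours overlapped among the last 3 of these groups and among prKO, WT and srKO at 2 weeks. Rspo1 ran from prKO at 2 weeks (8.41) through WT at 2 weeks (7.68), prKO at 2 months (7.49), srKO at 2 weeks (7.47) and lrKO at 2 weeks (7.28) to WT, lrKO and srKO at 2 months (6.84, 6.77 and 6.75). Only the first group, and the step from lrKO at 2 weeks to WT at 2 months, had no overlap with the next.

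Foxl2, the forkhead transcription factor of granulosa cells, showed no difference from WT that passed. Its signal was low, with group means from 5.22 to 5.59, all below the 50th percentile of all values. At 2 weeks it was 5.24 to 5.66 in WT (median 5.53), 5.67, 5.65, 5.45 and 5.50 in prKO, 5.64, 5.61, 5.46 and 5.64 in srKO, and 5.36, 5.36, 5.50 and 5.41 in lrKO. These ranges overlapped. The difference was 0.05 ± 0.07 in prKO (95% interval -0.10 to 0.19) and 0.07 ± 0.07 in srKO (-0.08 to 0.22).

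At 2 months Foxl2 was 5.06 to 5.59 in WT (median 5.29). It was 5.56, 5.57 and 5.49 in prKO, 5.20, 5.19, 5.17 and 5.31 in srKO, and 5.26, 5.10, 5.21 and 5.30 in lrKO. The prKO arrays sat at the upper end of the WT range without leaving it. The difference from WT was 0.22 ± 0.09 (95% interval 0.03 to 0.41, adjusted p = 0.052), and it passed in 5 of 23 alternatives. Against the other lines prKO was higher by 0.32 ± 0.10 each time, with adjusted p = 0.028 against srKO and 0.015 against lrKO and no overlap with either. The first of these calls was lost in 8 of 17 alternatives, and the difference without the arrays high in Adam7 was 0.31 (adjusted p = 0.070). In srKO the difference from WT was -0.10 ± 0.08 (-0.27 to 0.07).

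Fst encodes follistatin, which binds and blocks activins and is a target of WNT and FOXL2 action in the ovary. At 2 weeks it was 6.27 to 7.61 in WT (median 6.46), 6.66, 6.10, 6.52 and 6.45 in prKO, 6.41, 6.53, 6.51 and 6.44 in srKO, and 6.42, 6.38, 6.30 and 6.62 in lrKO. The groups overlapped, and WT replicate 4, at 7.61, stood well above the next WT array at 6.74.

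At 2 months Fst was 5.82 to 6.04 in WT (median 5.94) and 6.20, 6.51 and 6.38 in prKO, all above every WT array. It was 6.41, 6.34, 5.92 and 6.11 in srKO, with 1 of the 4 inside the WT range, and 5.86, 6.11, 5.90 and 5.87 in lrKO. Fst rose 1.34-fold in prKO (0.42 ± 0.10, adjusted p = 0.0012), in all 24 alternatives. In srKO it rose 1.19-fold (0.25 ± 0.09, adjusted p = 0.038), but the call was lost in 13 of 25 alternatives, and without srKO replicate 1 the difference was 0.18 (adjusted p = 0.18). The difference between prKO and srKO, 0.17 ± 0.11 (95% interval -0.06 to 0.39), did not pass.

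Bmp2 encodes a bone morphogenetic protein expressed on the ovarian side of gonad development. At 2 weeks it was 5.15 to 5.67 in WT (median 5.35), 5.45, 5.07, 5.62 and 5.45 in prKO, 5.16, 4.86, 5.65 and 5.12 in srKO, and 5.22, 5.50, 5.12 and 5.20 in lrKO, with overlap throughout. At 2 months it was 4.36 to 4.98 in WT (median 4.73), with 3 of 8 arrays below the limit for dim genes of 4.62. It was 5.05, 5.32 and 5.02 in prKO, 4.91, 4.73, 4.84 and 4.88 in srKO, and 4.82, 4.93, 5.00 and 4.47 in lrKO. All prKO arrays lay above every WT array, and Bmp2 rose 1.32-fold there (0.40 ± 0.12, adjusted p = 0.011). The call was lost in 3 of 23 alternatives; without prKO replicate 2 it was 0.31 (adjusted p = 0.082), and with a replicate block 0.38 (adjusted p = 0.081).

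Esr2 encodes estrogen receptor beta, the main estrogen receptor of granulosa cells. At 2 weeks it was 5.74 to 6.45 in WT (median 6.06), 5.95, 6.13, 5.83 and 6.15 in prKO, 5.88, 6.25, 5.98 and 5.99 in srKO, and 6.07, 6.05, 5.94 and 6.04 in lrKO. At 2 months it was 5.39 to 5.98 in WT (median 5.71), 5.42, 5.89 and 5.91 in prKO, 5.92, 5.60, 5.62 and 5.44 in srKO, and 5.64, 5.77, 5.73 and 5.94 in lrKO. Every mutant array lay within the WT range of its age. The difference in prKO at 2 months was 0.02 ± 0.12, with a 95% interval from -0.24 to 0.28.

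Hsd17b1 encodes the granulosa enzyme that makes estradiol from estrone. At 2 weeks it was 6.14 to 6.55 in WT (median 6.24), 6.16, 6.21, 5.99 and 5.95 in prKO, 6.38, 6.20, 6.42 and 6.21 in srKO, and 6.23, 6.29, 6.37 and 6.48 in lrKO. At 2 months it was 5.80 to 6.04 in WT (median 5.93), 5.63, 5.69 and 5.90 in prKO, 5.89, 5.73, 5.89 and 5.92 in srKO, and 5.93, 6.08, 6.06 and 5.94 in lrKO. At each age 2 prKO arrays lay below every WT array, and the other prKO arrays lay inside the WT range. The prKO differences were -0.20 ± 0.08 at 2 weeks (adjusted p = 0.11) and -0.18 ± 0.08 at 2 months (adjusted p = 0.063), opposite in sign to those of Rspo1. The lower level passed in 5 of 24 alternatives at 2 months, among them quantile normalization (-0.23, adjusted p = 0.026) and centring (-0.23, adjusted p = 0.029), and without the arrays high in Adam7 the difference was -0.11 (adjusted p = 0.36). The 2-week value passed in 1 of 25, against WT replicates 5 to 8 alone (-0.26, adjusted p = 0.043). Against lrKO at 2 months, Hsd17b1 was lower in prKO by a called difference of -0.26 ± 0.09 (adjusted p = 0.020), lost in 7 of 18 alternatives, among them that without the arrays high in Adam7 (-0.23, adjusted p = 0.092).

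For the groups in which none passed with limma, unadjusted p was under 0.05 for none of the 7 members in srKO at 2 weeks, for 2 in lrKO at 2 weeks (Wnt4 and Rspo1) and for none in lrKO at 2 months. The 6 comparisons with WT share the WT arrays of their age, so the lines' differences are not independent of each other.

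**Figure D3:**
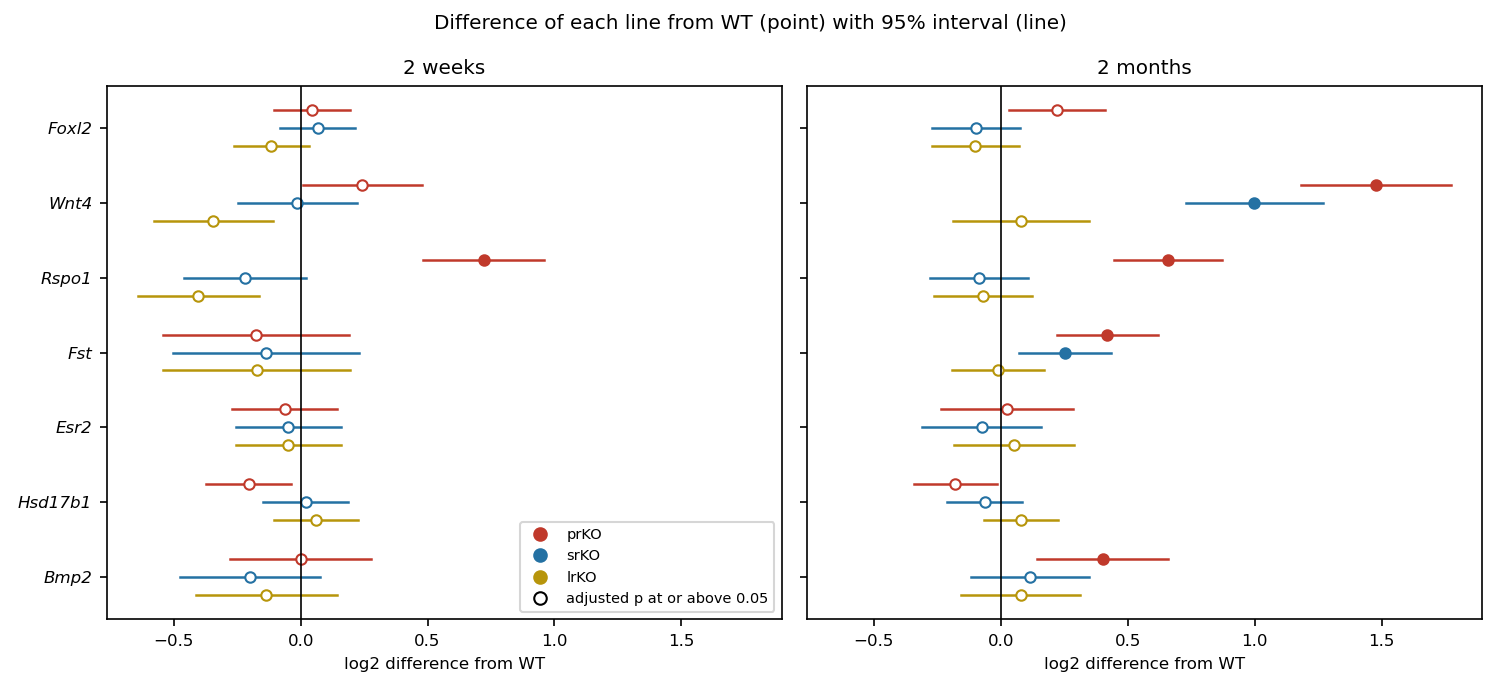
Log2 difference from WT of each of the 7 measured genes in prKO, srKO and lrKO at 2 weeks and at 2 months, with 95% intervals from the limma fit. Filled points passed the adjusted threshold of 0.05. The prKO interval of Wnt4 at 2 months runs from 1.18 to 1.77 and that of Esr2 from -0.24 to 0.28.

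In WT, all 7 members were lower at 2 months than at 2 weeks, in a comparison where 55% of all genes were called lower and 81.6% passed in either direction. The median of the members was -0.36 and that of all genes -0.24. The differences ran from -0.20 ± 0.06 for Foxl2 (adjusted p = 0.0031) to -0.85 ± 0.09 for Rspo1 (adjusted p = 3.6e-11). Wnt4 was lower by a log2 difference of -0.34 ± 0.10 (adjusted p = 0.0023), although it did not pass with WT replicates 5 to 8 alone (-0.10, adjusted p = 0.46). After quantile normalization or centring of the arrays, Foxl2 did not pass (-0.11 and -0.09), and the median of all genes moved from -0.24 to -0.13 and -0.12. Against this background, Wnt4 in prKO and srKO at 2 months stood above every WT array of either age.

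The list counts below stand beside the shares of all genes tested that were called. In prKO 7.9% rose and 2.59% fell at 2 weeks, and 26% and 22.4% at 2 months. In srKO 0.784% rose and 0.0894% fell at 2 weeks, and 14.7% and 10.8% at 2 months. In lrKO 0.1% passed at 2 weeks and 0.184% at 2 months. The partners of Rspo1 and Wnt4 were read from a list of 20 genes for R-spondins, WNT receptors, their turnover and targets, of which 19 were tested. In prKO 2 rose and none fell at 2 weeks: Lrp5, a WNT co-receptor (0.69 ± 0.09, adjusted p = 4.0e-05), and Fzd1, a WNT receptor (0.41 ± 0.09, adjusted p = 0.0034, lost in 2 alternatives). At 2 months 9 rose and 1 fell, with a median of 0.32 beside 0.02 over all genes. The largest were Lgr4, an R-spondin receptor (1.24 ± 0.14), Rspo3, another R-spondin (0.98 ± 0.16), Ctnnb1, which encodes beta-catenin (0.75 ± 0.10), and Fzd1 (0.75 ± 0.10). Without prKO replicate 1 Rspo3 was 0.65 and still passed. Axin2, a general target of beta-catenin signalling, rose by 0.50 ± 0.10 in prKO (adjusted p = 0.00026) and differed by -0.11 ± 0.09 in srKO (adjusted p = 0.42). Znrf3, which removes WNT receptors, fell by 0.47 in prKO (adjusted p = 0.0040).

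In srKO at 2 months 4 of the 19 partners rose and none fell: Lgr4 (0.73 ± 0.13), Fzd6 (0.43 ± 0.10), Lrp6 (0.39 ± 0.09) and Ctnnb1 (0.34 ± 0.09), with a list median of 0.05 beside 0.03. In srKO at 2 weeks and in lrKO at both ages none of the 19 passed with limma, and unadjusted p was under 0.05 for 5, 2 and 2 of them. Axin2 and Znrf3 were named after their values were seen, and in prKO they moved in opposite directions. Whether WNT signalling itself changed was not tested.

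The list of activin, inhibin and BMP genes, partners of Fst and Bmp2, held 23 genes, all tested. In prKO 3 rose at 2 weeks: Acvr1, a BMP and activin receptor (1.06 ± 0.14), and the inhibin subunits Inha (0.53 ± 0.09) and Inhbb (0.37 ± 0.09). At 2 months 15 rose and 2 fell, beside 26% and 22.4% of all genes, with a median of 0.42 beside 0.02 over all genes. Acvr1 rose by 1.41 ± 0.17, Inha by 1.39 ± 0.13 and Bmpr2, a BMP receptor, by 1.09 ± 0.13. Bmpr1b rose by 1.10 ± 0.42 (adjusted p = 0.037), with 1 of 3 arrays above every WT array, and lost the call in 10 of 23 alternatives; without prKO replicate 1, the array with Adam7 at 11.70, the log2 difference was 0.0024 (adjusted p = 0.99). In srKO Inha rose (0.43 ± 0.09) and Acvr1b, an activin receptor, fell (by 0.37) at 2 weeks, and without srKO replicate 1 neither passed (adjusted p = 0.14 and 0.093). At 2 months 5 rose and none fell there, led by Inha (1.36 ± 0.12) and Fstl3, a follistatin relative (0.63 ± 0.16), whose call was lost with a replicate block and against WT replicates 1 to 4 alone. In lrKO none passed with limma at either age, with unadjusted p under 0.05 for 2 genes each time. Inha is also a Sertoli cell product in the normal testis.

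Estrogen synthesis, receptor and turnover genes numbered 14, with 12 tested. In prKO 5 rose at 2 weeks and 8 at 2 months, beside 7.9% and 26% of all genes, and none fell. The largest at 2 weeks were Cyp1b1, which hydroxylates estrogens (1.87 ± 0.20), Sult1e1, which inactivates them by sulfation (1.07 ± 0.20), Hsd17b7 (0.84 ± 0.14) and Esr1, estrogen receptor alpha (0.66 ± 0.17, lost in 5 alternatives). Of the 4 prKO arrays, all lay above every WT array for Cyp1b1 and Hsd17b7, but only 2 for Sult1e1 and 1 for Esr1. At 2 months Hsd17b7, an enzyme of cholesterol synthesis that also reduces estrone, rose by 1.96 ± 0.13, Cyp1b1 by 1.86 ± 0.26, Sult1e1 by 1.78 ± 0.26 and Hsd17b12 by 1.33 ± 0.12. In srKO none passed at 2 weeks with limma (unadjusted p under 0.05 for 2), and 6 rose at 2 months, led by Sult1e1 (1.38 ± 0.24) and Hsd17b3, the testicular enzyme for testosterone (0.92 ± 0.19). In lrKO none passed at 2 weeks (limma, none with an unadjusted p under 0.05 either). At 2 months Hsd17b3 fell there by 1.35 and Hsd17b7 rose by 0.76 ± 0.11. The genes that moved included Leydig cell and general steroid enzymes, whereas Hsd17b1 and Esr2 did not pass against WT.

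A list of 25 further granulosa and ovarian genes had 22 tested. In prKO 1 rose at 2 weeks, Tnfaip6, a matrix protein of the expanding cumulus (0.84 ± 0.16), and none fell. At 2 months 11 rose and 1 fell, beside 26% and 22.4% of all genes, with a median of 0.37 beside 0.02. Ccnd2, a cyclin of proliferating granulosa cells, ranged from 8.56 to 10.16 in prKO and 6.63 to 7.19 in WT, and rose by 2.40 ± 0.21. Sfrp4, a secreted WNT modulator, rose by 1.56 ± 0.33, Runx1, a transcription factor of fetal granulosa cells, by 0.75 ± 0.18 and Tnfaip6 by 0.74 ± 0.12. Without prKO replicate 3, the array highest in Wnt4, Sfrp4 was 0.77 and Runx1 0.44 (adjusted p = 0.045).

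In srKO at 2 months 3 of those 22 rose and 1 fell (14.7% and 10.8% of all genes), with a median of 0.02 beside 0.03 over all genes. Ccnd2 rose by 1.71 ± 0.19, with srKO arrays from 8.45 to 8.86. Runx1 rose by 0.57 ± 0.16, a call lost without srKO replicate 2 (0.39, adjusted p = 0.098), and Gatm by 0.31 ± 0.11, the latter lost in 12 alternatives, and Irx5, a homeobox gene of granulosa precursors, fell by 0.36. In srKO at 2 weeks and in lrKO at both ages none passed with limma, and unadjusted p was under 0.05 for 5, 2 and 2 genes. Ccnd2 was also high in WT at 2 weeks, from 9.30 to 10.12, so it does not mark the ovary alone.

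Sertoli and male fate genes were read beside these. Of 21 tested, 1 rose and 2 fell in prKO at 2 weeks: Nr5a1, which encodes SF-1, rose by 0.91 ± 0.07, Fshr, the receptor for follicle-stimulating hormone, fell by 0.69, and Amh, anti-Mullerian hormone, fell by 0.59. The call for Amh (adjusted p = 0.046) was lost in 16 of 25 alternatives. At 2 months 11 rose and 2 fell in prKO, beside 26% and 22.4% of all genes. Among them Nr5a1 rose by 1.35 ± 0.15, Cldn11, a claudin of the Sertoli cell barrier, by 0.99 ± 0.13 and Cst12 by 0.99 ± 0.15. Rhox5 fell by 0.93. In srKO 1 rose at 2 weeks, Gata1 (0.35 ± 0.07, adjusted p = 0.093 without srKO replicate 1), and 7 rose and 2 fell at 2 months, with Fshr lower by a log2 difference of -1.09 ± 0.12, Rhox5 by -0.70 ± 0.11, and Cldn11 and Nr5a1 higher by 0.77 ± 0.11 and 0.65 ± 0.13. In lrKO Rhox5 rose (0.71 ± 0.12) and Cst9 fell (by 1.67) at 2 weeks, and Cst9 fell by 0.51 at 2 months. Rhox5 lost its call without lrKO replicate 3 (adjusted p = 0.14), and Cst9 at 2 months did so too (adjusted p = 0.052).

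Sox9 and Dmrt1, the factors that maintain Sertoli fate, were named after their values were seen. Sox9 ranged from 8.17 to 8.99 in prKO and 7.92 to 8.33 in WT at 2 months, and it rose there by 0.57 ± 0.13 (adjusted p = 0.0014). In srKO at 2 months it ranged from 8.08 to 8.42 and differed by 0.19 ± 0.12 (adjusted p = 0.29). Dmrt1 differed by -0.05 ± 0.13 in prKO (adjusted p = 0.80) and by -0.30 ± 0.12 in srKO (adjusted p = 0.069). At 2 weeks neither gene passed in any line.

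Markers of other ovarian cells gave little for the oocyte and more for the theca and stroma. Of 10 oocyte genes 6 were tested, and in prKO none passed at either age with limma (none with an unadjusted p under 0.05). The mean level of the 10 was 4.41 to 4.54 in prKO and 4.46 to 4.64 in WT at 2 months, around the limit for dim genes. In srKO none passed at 2 weeks (unadjusted p under 0.05 for 2), and Zp3 fell by 0.25 at 2 months, a call lost in 4 alternatives. In lrKO none passed (1 gene with an unadjusted p under 0.05 at each age). Of 8 theca and stroma genes tested, Cyp17a1, a steroid enzyme shared with Leydig cells, rose (1.86 ± 0.34) and Ptch1, a hedgehog receptor, fell (by 0.59) in prKO at 2 weeks. At 2 months 5 of the 8 rose there, beside 26% of all genes. Among them were Pdgfra (1.60 ± 0.19) and Nr2f2 (1.02 ± 0.11), both genes of testis interstitial cells too. In srKO 2 rose at 2 months, Ptch1 (0.50 ± 0.09) and Nr2f2 (0.44 ± 0.10), and none passed at 2 weeks (none at an unadjusted p under 0.05). In lrKO none passed (1 and 0 genes at an unadjusted p under 0.05).

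**Figure D4:**
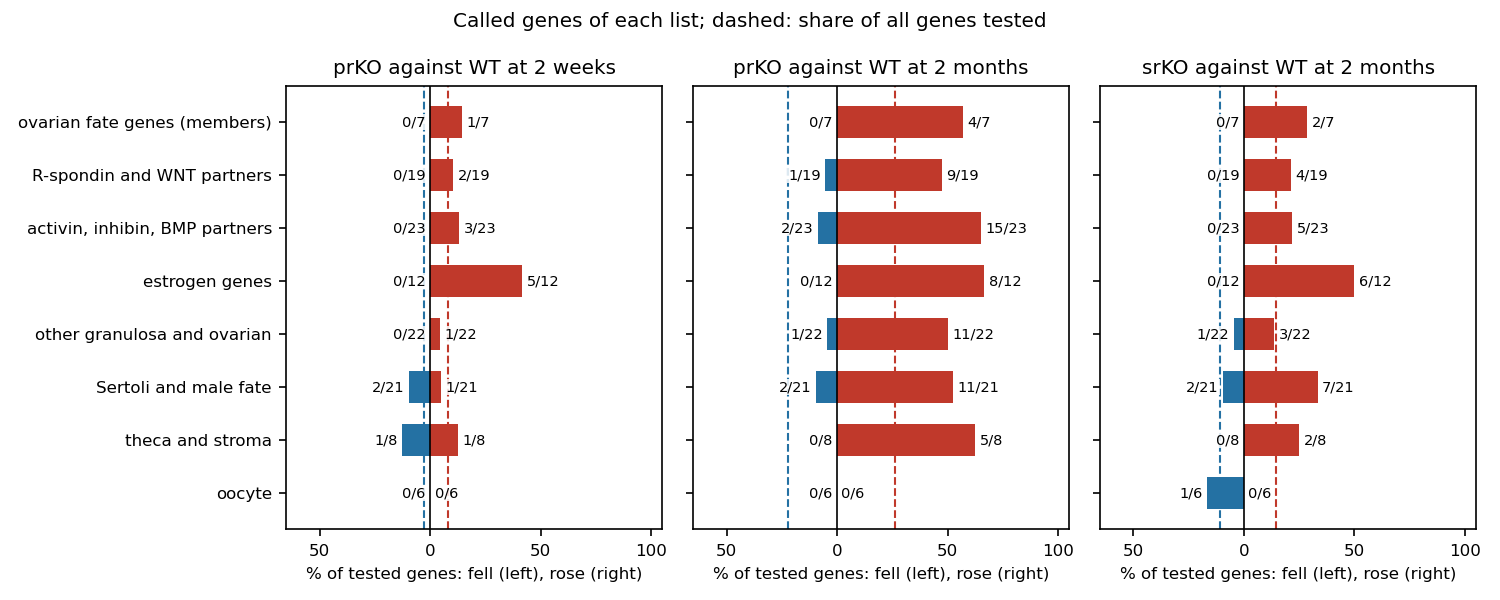
Share (%) of the tested genes of each list that rose (right, red) or fell (left, blue) against WT in prKO at 2 weeks, prKO at 2 months and srKO at 2 months, with the counts beside each bar. Dashed lines are the shares of all genes tested, 26% higher and 22.4% lower in prKO at 2 months. There 11 of 22 other granulosa genes and 11 of 21 Sertoli genes rose, and none of 6 oocyte genes did.

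Markers of other testis cell types moved with the same groups. Of all genes, 26% rose and 22.4% fell in prKO at 2 months. In prKO at 2 months, all 9 endothelial genes and 9 of 10 macrophage genes rose, and their mean levels were 7.16 to 8.09 (WT 6.13 to 6.43) and 7.46 to 8.14 (WT 6.59 to 6.81). Of 9 spermatid genes 8 fell and 1 rose, with a mean of 10.03 to 10.78 against 11.15 to 11.35 in WT. Of 7 Leydig genes 5 rose and 1 fell (9.26 to 9.66 against 8.69 to 9.15), and the Sertoli list's mean was 8.08 to 8.53 against 7.93 to 8.20.

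In srKO at 2 months, 7 of 9 endothelial and 8 of 10 macrophage genes rose, and 7 of 9 spermatid genes fell (9.64 to 10.52). Of all genes, 14.7% rose and 10.8% fell there. The Sertoli list's mean in srKO, 8.07 to 8.19, stayed within the WT range. In prKO at 2 weeks, 6 of 9 endothelial, 5 of 10 macrophage and 4 of 7 Leydig genes rose and none of these fell. The shares of all genes were 7.9% higher and 2.59% lower. The part of these cell types in the rise of Wnt4, Rspo1, Fst and Bmp2 was not tested. The remaining lists, in prKO, srKO and lrKO at 2 months, gave 5, 3 and 0 higher and 1, 1 and 0 lower of 7 peritubular myoid genes. For 10 spermatogonial genes these were 3, 0 and 0 higher and 4, 0 and 0 lower, and for 9 meiotic genes 0, 2 and 0 higher and 7, 0 and 0 lower. For 4 adrenal cortex genes they were 3, 1 and 1 higher and none lower, and for 4 epididymis genes none higher and 1, 0 and 0 lower. At 2 weeks 2 of 4 adrenal cortex genes rose in prKO.

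The genes whose pattern over the 39 arrays was most like that of each member were found after the mean of each age was subtracted. For Wnt4 they were Adamts9 (Pearson r = 0.95), Zmiz1 (0.94) and Apbb2 (0.94). For Rspo1 they were Tgfb2 (0.90), Angpt4 (0.90) and Gria3 (0.89). For Fst they were Tbx2 (0.83), Gabrp (0.81) and Myocd (0.81). The best match was weaker for Foxl2 (Zfp524, 0.72), Esr2 (Ptchd1, 0.69), Hsd17b1 (Rhox5, 0.68) and Bmp2 (Ly96, 0.62). Between members r was highest for Fst with Wnt4 (0.58), Rspo1 with Wnt4 (0.55) and Rspo1 with Foxl2 (0.52), and lowest for Hsd17b1 with Rspo1 (-0.56). The 39 arrays share genotypes and 1 normalization, so these values describe the arrays and carry no test.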

How the data were processed

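The deposited table held log2 intensities per probe set for 39 arrays, which the authors normalized with RMA, per the submitters' processing notes; the sources used here do not name its version or the array's genome build. Values ran from 2.54 to 13.62, and no further normalization was applied. Of 41345 probe sets, 23521 had 1 symbol, 1814 several and 16010 none in the annotation; 23328 of the first class were found in a RefSeq-based gene table, which changed 0 symbols. For 1082 of 22180 genes with several probe sets, the brightest one by its mean across arrays stands for the gene. Genes were tested when at least 1 group mean was over 4.62, the 25th percentile of the table, leaving 19007.

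Groups came from the sample titles. limma 3.58.1 (lmFit, eBayes) in R 4.3.3 was fitted to the 4 genotypes at each age, and to all 8 groups for comparisons between ages. All tests are two-sided, and p-values were adjusted by the Benjamini-Hochberg method across the 19007 genes, with calls made below 0.05. The adjusted p-values are from these fits, values after ± are standard errors of a log2 difference, and 95% intervals are from the same fits. The script was tested on simulated data. Titles call the arrays biological replicates; arrays carry no read depth, so their number limits the precision.

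All listed genes are named in every comparison. From each partner or marker list, at most the 4 called genes with the largest difference are named, and other names are marked as chosen after their values were seen. The members and lists were chosen with earlier results of these data known. Alternatives were quantile normalization, centring, other filters, array weights, other sets of groups in the fit, a replicate block, WT replicates 1 to 4 or 5 to 8 alone, leaving out each array, and, chosen after seeing the data, leaving out the 4 arrays high in Adam7. Within 1 age only WT had replicates 5 to 8, so there the block compares the lines with WT replicates 1 to 4. Promoter sequences are from RefSeq on GRCm38.p6.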

Additional observations from a re-analysis of the deposited data

Results flagged for a closer look

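Within groups of 4 to 10 arrays, 5 of 49 sets of values had 1 array whose gap to its nearest neighbour was large for the group's range. Chance gives about 1 in 20 such sets. Foxl2 in srKO at 2 months had replicate 4 at 5.31, with the next array at 5.20. Rspo1 in lrKO at 2 months had replicate 3 lowest at 6.69, with the next at 6.78. Fst in WT at 2 weeks had replicate 4 at 7.61, with the next at 6.74, and Fst in lrKO at 2 months had replicate 2 at 6.11, with the next at 5.90. Hsd17b1 in srKO at 2 months had replicate 2 lowest at 5.73, with the next at 5.89.

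Wnt4 and Fst differed from WT by different amounts at the 2 ages, by a test of the change itself in limma. For Wnt4 the change from 2 weeks to 2 months was 1.24 in prKO (adjusted p = 3.5e-06) and 1.01 in srKO (adjusted p = 5.6e-05), with every prKO and srKO array above every WT array at 2 months. For Fst in prKO it was 0.60 (adjusted p = 0.034), with 3 of 3 arrays above WT at 2 months.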

How the results depend on the processing

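The number of called members varied with the processing. For prKO against WT at 2 months, Bmp2 lost its call with array weights or a replicate block. Hsd17b1 gained a call there with quantile normalization or centring, and Foxl2 with all 8 groups in 1 fit or WT replicates 5 to 8 alone. For the other comparisons only the larger changes are listed. For srKO against WT at 2 months it fell from 2 to 1 (Wnt4) with quantile normalization, centring, array weights, all 8 groups in 1 fit, a replicate block, or WT replicates 1 to 4 or 5 to 8 alone. For the age change of prKO it fell from 2 to 1 with centring or WT replicates 5 to 8. For prKO against WT at 2 weeks it rose from 1 to 2 with array weights and to 3 with WT replicates 5 to 8. With only the groups compared in the fit, prKO against srKO gave 2 at 2 weeks in place of 1 and 1 at 2 months in place of 3, and srKO against lrKO at 2 weeks gave 1 in place of 0, as it did with array weights, which also took prKO against lrKO at 2 months from 5 to 3. With WT replicates 1 to 4 alone, srKO against WT at 2 weeks gave 1 (Rspo1) and lrKO 2 (Wnt4 and Rspo1) in place of 0. The replicate block gave the same counts and the same differences for these genes. Only WT had replicates 5 to 8, so within 1 age the block leaves them out of the comparison, and the 2 settings are not independent. The cause of the other changes in the counts was not tested.

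Leaving out each array in turn gave 1 to 2 called members for prKO against WT at 2 weeks and 3 to 6 at 2 months, 1 to 2 for srKO against WT at 2 months and 2 to 3 for prKO against lrKO at 2 weeks. It gave 1 to 3 for prKO against srKO and 4 to 5 for prKO against lrKO at 2 months, 1 to 2 for srKO against lrKO at 2 months and 1 to 2 for the age change of prKO. The other counts did not vary. Correlations between the deviations of same-numbered mutant and WT arrays ran from -0.62 to 0.34. WT replicates 5 to 8 have no same-numbered mutant array, so a pairing or batch that involves them could not be examined this way. The replicate block took genes called for prKO at 2 weeks from 1994 to 598 of all genes, and WT replicates 5 to 8 alone took them to 4802. Of 2719 member values under alternatives, 2513 kept direction and call, 31 gained and 47 lost a call, 128 uncalled values changed sign, and no called value changed sign. The filter at the 50th percentile left out Foxl2 and Bmp2. With only the groups compared there was no fit for the lines' changes between ages, and comparisons between ages already used all 8 groups.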
